A study of Rattus norvegicus with 26 samples.

Results

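Aortas of rats given valsartan were compared with aortas of rats given a low dose of Songling Xuemaikang capsule (SXC), a herbal preparation. The comparison takes the 6 valsartan arrays and the 6 low-dose SXC arrays, chosen by their sample titles, so 12 of the 26 arrays of the series. All rats were male and of the spontaneously hypertensive strain, whose high blood pressure is inherited, and each array read the total RNA of 1 thoracic aorta. Valsartan was given by mouth at 21.6 mg per kg between hours 14 and 15 of the day. Low-dose SXC was given by mouth at 236.25 mg per kg between hours 9 and 10 and between hours 12 and 13. The other arrays held aortas of rats given high-dose SXC (708.75 mg per kg at the same hours, 6 arrays) or saline (7.5 mL per kg, 8 arrays). Dosing lasted 4 weeks, lights were on between hours 7 and 19, and the aortas were taken at 28 days. The hour of killing and the age of the rats are not given in the sources used here. The series text counts 8 valsartan rats, of which 6 arrays were analysed here. Of the genes that define aortic smooth muscle, Acta2 lay above at least 93.7% of tested probes on each of the 26 arrays, Myh11 above at least 97.1%, Tagln above at least 94.7% and Cnn1 above at least 69.2%.

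Valsartan blocks the type 1 receptor of angiotensin II, the peptide through which the renin-angiotensin system constricts vessels and drives growth of the vessel wall. Smooth muscle and endothelium also carry a circadian clock, a loop in which the activators BMAL1, CLOCK and NPAS2 bind E-box DNA and switch on repressors of the PER and CRY families. REV-ERB repressors, encoded by Nr1d1 and Nr1d2, act back on Bmal1 through ROR elements, and the factors DBP, TEF and NFIL3 bind a further element, the D-box. In rodent tissues the repressors and DBP peak at other hours of the day than Bmal1 and Npas2.

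Ciart and Per2, genes of the clock, were called with and without the scan as a block, so the promoters of 3 clock genes that rose and of 1 that fell are shown, chosen because elements of the loop lie in them. The sequences are RefSeq's for the rat assembly GRCr8, from 250 bases before to 50 bases after the gene start, 5′ to 3′ on the strand of the gene. They are Ciart at chr2:186112197-186112496 (minus strand), Per2 at chr9:99496944-99497243 (minus strand), Tef at chr7:115206577-115206876 (plus strand) and Bmal1 at chr1:176766078-176766377 (plus strand). Capitals mark the E-box CACGTG, its variant CACGTT, the D-box TTATGTAA and the ROR element TAGGTCA, each searched on both strands.
Ciart: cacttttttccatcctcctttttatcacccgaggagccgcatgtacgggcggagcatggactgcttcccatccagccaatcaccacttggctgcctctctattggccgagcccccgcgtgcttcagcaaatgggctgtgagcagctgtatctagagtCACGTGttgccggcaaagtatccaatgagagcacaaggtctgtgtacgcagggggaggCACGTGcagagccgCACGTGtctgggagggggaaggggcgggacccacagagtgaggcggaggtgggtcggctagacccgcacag
Per2: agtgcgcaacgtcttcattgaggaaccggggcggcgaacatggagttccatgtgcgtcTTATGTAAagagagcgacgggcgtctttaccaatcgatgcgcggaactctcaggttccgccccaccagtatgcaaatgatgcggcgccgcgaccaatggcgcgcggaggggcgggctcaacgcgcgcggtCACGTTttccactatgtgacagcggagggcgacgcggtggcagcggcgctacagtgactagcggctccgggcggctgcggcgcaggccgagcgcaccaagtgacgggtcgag
Tef: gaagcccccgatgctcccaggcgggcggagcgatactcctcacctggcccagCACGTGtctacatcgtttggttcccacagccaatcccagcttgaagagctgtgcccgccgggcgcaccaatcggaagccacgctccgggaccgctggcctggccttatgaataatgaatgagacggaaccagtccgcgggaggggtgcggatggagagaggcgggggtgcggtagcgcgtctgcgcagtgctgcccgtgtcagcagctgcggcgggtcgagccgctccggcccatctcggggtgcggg
Bmal1: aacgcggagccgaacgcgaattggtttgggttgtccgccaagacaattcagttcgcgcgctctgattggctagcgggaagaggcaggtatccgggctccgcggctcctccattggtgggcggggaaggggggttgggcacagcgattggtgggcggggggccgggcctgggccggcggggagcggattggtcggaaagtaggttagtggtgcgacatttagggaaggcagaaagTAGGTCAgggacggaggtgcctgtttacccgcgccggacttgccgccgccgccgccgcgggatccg

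Ciart held 3 E-boxes, which began 93, 35 and 21 bases before the start. Per2 held a D-box 192 bases and the E-box variant 62 bases before the start, Tef an E-box 198 bases before it, and Bmal1 a ROR element 16 bases before it. A promoter was found for 14 of the 16 clock genes tested. Of these, 4 (Bhlhe40, Ciart, Nr1d1 and Tef) held CACGTG in at least 1 promoter, against 7.08% of all 27457 genes with a promoter of this length. The variant CACGTT lay in 3 (Cry2, Nr1d1 and Per2), against 5.3% of all genes, though the 2 matches in Nr1d1 lay in different promoters of that gene. The D-box lay in 1, against 0.958% of all genes, and the ROR element in 1, against 2.83%. No motif searched is part of another, although CACGTG and CACGTT share their first letters. A match describes the letters of this window and no binding was measured.

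The 2 groups were scanned under different conditions. All 6 valsartan arrays were scanned on a single day at a detector gain of 325 V, and the low-dose arrays on 2 other days at 353 to 354 V. The share of probes well above background was 32.4% to 56.5% on valsartan arrays, against 70.0% to 77.0% on low-dose arrays (exact permutation test of the group means, 2-sided p = 0.00216, the smallest that 6 against 6 arrays can give). A level here is log2 of the processed signal minus the 75th percentile of its array. The 1st percentile of the levels lay at -5.61 to -3.39 on valsartan arrays and at -8.25 to -7.20 on low-dose arrays, so the lowest level that an array can give was higher on valsartan arrays. Of the high-dose SXC arrays, 4 were scanned at the lower gain (323 to 325 V) and 2 at the higher (353 V), and 2 of those 4 on the day of the valsartan arrays. The high-dose arrays therefore measure what differs between the gains within 1 treatment. No scan day held both valsartan and low-dose arrays, so treatment and scan cannot be told apart in a direct comparison of the 2 groups.

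**Figure D1:**
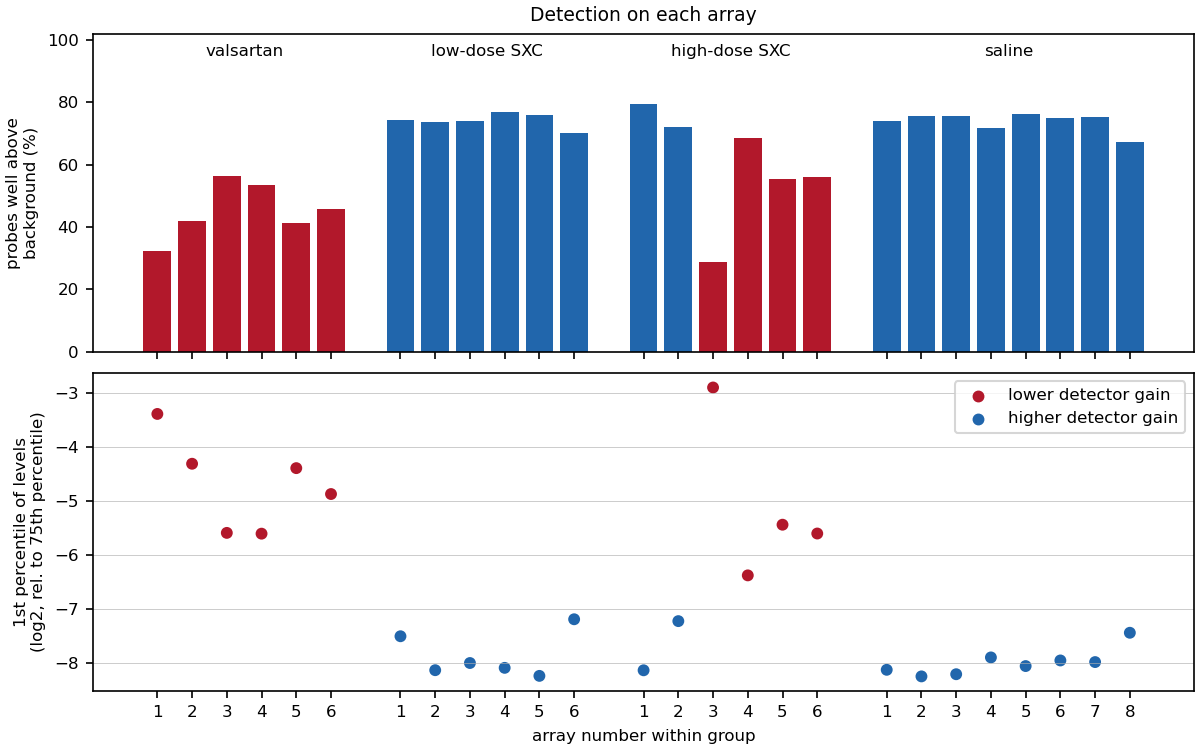
Each array by its number within its group (valsartan, low-dose SXC, high-dose SXC, saline), with the percent of probes well above background as bars (top) and the 1st percentile of its levels, in log2 relative to the 75th percentile, as points (bottom). Red marks the lower detector gain and blue the higher, and the valsartan arrays sit between 32.4% and 56.5%, below every low-dose array (70.0% to 77.0%).

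Of 23744 probes tested, 6523 (27.5%) passed an adjusted p of 0.05 in limma, 3064 higher (12.9%) and 3459 lower (14.6%) in valsartan than in low-dose aortas. Probes with a gene name among them gave 1756 higher and 1749 lower genes. The share of calls that were higher, 47.0%, depended on the scaling. It was 73.9% after normexp background correction, 28.3% after quantile normalisation, 34.6% with the array median, 74.2% with the 75th percentile of the probes above background on all arrays, and 29.5% in the authors' deposited values. The median difference of all probes was -0.06 on the log2 scale, and 0.35, -0.24, -0.25, 0.22 and -0.23 in those 5 scalings in the same order. Of the 3064 higher probes, 745 (3.14% of all tested) were well above background on all 6 valsartan arrays, 1664 on 1 to 5 and 655 on 0. Of the 3459 lower probes, 3447 were well above background on all 6 low-dose arrays.

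Across the 23744 probes the difference between valsartan and low-dose arrays followed the difference between the 4 lower-gain and the 2 higher-gain high-dose arrays (r = 0.77 across probes, a description only, since all probes share the same arrays). The 2 differences have no array in common. Among probes higher in valsartan, the lower-gain high-dose arrays read a median of 1.41 above the higher-gain ones, among lower probes -0.63 and among all probes 0.01. With the gain as a block, a limma fit that takes the gain difference from the high-dose arrays, 4 probes passed (0.0168%), all of them higher, and 1402 had an unadjusted p under 0.05. With the scan day as a block 20 passed (0.0842%), 8 higher (0.0337%) and 12 lower (0.0505%), and 1564 had an unadjusted p under 0.05. Slides were inferred, in that arrays with the same scan time in the scanner files were taken as 1 slide. With the slide as a random block 2137 passed (9%), 1117 higher (4.7%) and 1020 lower (4.3%). That fit estimated a correlation of 0.23 between arrays of a slide. The standard error of a difference had a median of 0.32 in the fit with no block, 0.54 with the gain and 0.64 with the day, so the blocked fits can call only larger differences. Ciart and Per2 were called in the same direction with no block and with the gain or the day as a block. These 3 fits share arrays and are not separate tests. The day block rests on days that held 2 groups, 6 valsartan with 2 high-dose arrays and 2 low-dose with 2 high-dose arrays.

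**Figure D2:**
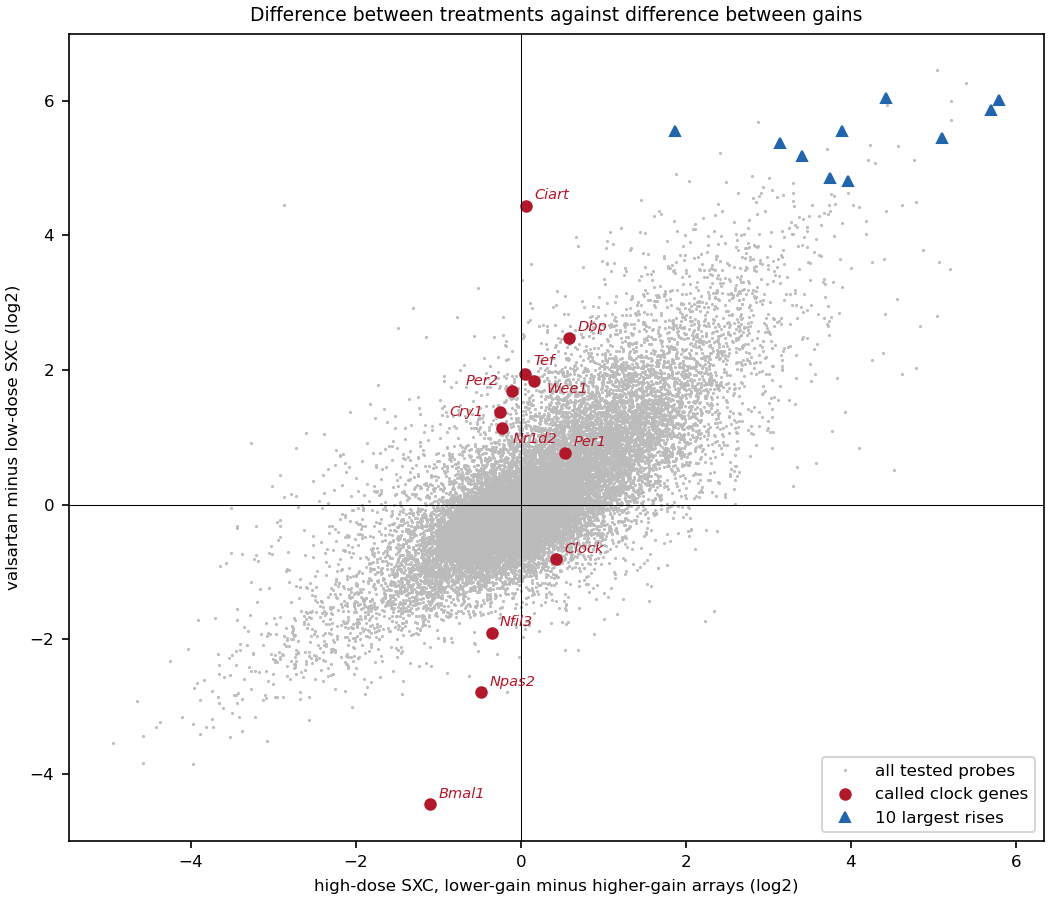
Each point is 1 of 23744 probes, with the difference between lower-gain and higher-gain high-dose SXC arrays on the horizontal axis and that between valsartan and low-dose SXC arrays on the vertical axis, both in log2. The cloud rises to the right (r = 0.77) with the 10 largest rises as triangles at its upper right, while the called clock genes (circles) lie closer to 0 on the horizontal axis, Ciart at 0.063 against 4.44 on the vertical axis.

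Clock genes moved in both directions. Of 20 listed, 16 were tested, of which 8 were higher and 4 lower in valsartan aortas, so 12 were called (75%, against 25.6% of the 12240 genes tested). For 10 of the 16 the levels of the 2 groups did not overlap, as was so for 16.7% of all probes. The genes that rose were repressors of the loop and its outputs Dbp, Tef and Wee1, and the genes that fell were Bmal1, Npas2, Nfil3 and Clock, the last of which turned in sign under normexp correction. After that correction 10 were higher and 2 lower. Between the gains within high-dose SXC the 12 called genes had a median absolute difference of 0.31, against 0.98 over all 6523 called probes. Among 34 gene lists examined, that of the clock was the 1 with a gene called under the gain block, and likewise under the day block.

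Ciart, a repressor of BMAL1 and CLOCK whose promoter holds the 3 E-boxes, had levels of 1.96 to 2.76 (median 2.31) on valsartan arrays, against -3.12 to -1.42 (median -2.15) on low-dose arrays. No array of either group lay between the 2 ranges. The difference was 4.44 ± 0.32 (SE, 95% interval 3.78 to 5.09, 21.7-fold, adjusted p = 2.25e-09), and 4.38 ± 0.58 (adjusted p = 0.00074) with the gain as a block. High-dose arrays read -0.87 to 0.76 at the lower gain and -0.69 to 0.042 at the higher gain, so the gains overlapped in Ciart. Saline arrays read -1.61 to -0.028, below every valsartan array.

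Per2, a core repressor of the loop, had levels of 2.32 to 3.07 (median 2.55) on valsartan arrays, against 0.64 to 1.31 (median 0.97) on low-dose arrays. Here too every valsartan array was above every low-dose array. Per2 rose by 1.68 ± 0.15 (SE, 3.21-fold, adjusted p = 1.13e-07), and the difference was 1.79 ± 0.27 (adjusted p = 0.00299) with the gain as a block. Cry1, the partner of PER proteins in repression, rose by 1.37 ± 0.25 (SE, 2.59-fold, adjusted p = 0.000388), with levels of -2.26 to -0.17 on valsartan arrays and -2.56 to -1.81 on low-dose arrays. Valsartan array 1 was the one that lay within the low-dose range of Cry1. Per1, a PER family member that responds quickly to stimuli, rose by 0.77 ± 0.29 (SE, 1.71-fold, adjusted p = 0.0482), was well above background on 3 of 6 valsartan arrays and overlapped between the groups. Its call was lost, at values between 0.59 and 0.76, when low-dose arrays 2, 3, 4 or 5 or valsartan arrays 2, 3, 5 or 6 were left out singly, and also after quantile normalisation (0.42), in the authors' deposited values (0.43) and with the array median (0.58). Per3 read 0.16 ± 0.28 (adjusted p = 0.714) on its brightest probe, and Cry2 -0.42 ± 0.21 (adjusted p = 0.132). Neither passed on these probes, although Cry2 was called lower after quantile normalisation (-0.62), with the array median (-0.61) and in the authors' deposited values (-0.66). Another Per3 probe, above background on no valsartan array, was called higher (1.40, adjusted p = 0.0141), and a further one gave 0.54 (adjusted p = 0.221).

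The output factor Dbp, which drives daily rhythms of many enzymes, had levels of 5.07 to 5.91 (median 5.48) on valsartan arrays, against 2.46 to 3.61 (median 3.06) on low-dose arrays. Its 3 probes gave 2.47, 2.48 and 2.71, all called, and on the brightest Dbp rose by 2.48 ± 0.30 (SE, 5.58-fold, adjusted p = 8.17e-06). Tef, a relative of DBP that binds the same D-box, rose by 1.95 ± 0.23 (SE, 3.85-fold, adjusted p = 8.17e-06), with levels of 0.53 to 2.24 on valsartan arrays and -0.89 to -0.24 on low-dose arrays. Wee1, a kinase that delays entry into mitosis, rose by 1.84 ± 0.29 (SE, 3.57-fold, adjusted p = 6.45e-05), with levels of 1.84 to 3.24 on valsartan arrays and 0.38 to 1.01 on low-dose arrays. In all 3 genes the groups did not overlap. Nr1d2, which encodes a REV-ERB repressor of Bmal1, rose by 1.13 ± 0.24 (SE, 2.19-fold, adjusted p = 0.00116), with levels of -2.24 to -0.88 on valsartan arrays and -2.93 to -2.44 on low-dose arrays, and was well above background on 4 of 6 valsartan arrays. It was not called after quantile normalisation (0.93) or in the authors' deposited values (0.99). Its relative Nr1d1 read 0.35 ± 0.31 (adjusted p = 0.422) and did not pass, and turned to -0.35 after quantile normalisation and to -0.31 in the authors' deposited values. Bhlhe40, another E-box repressor, read 0.69 ± 0.45 (adjusted p = 0.253) and did not pass. After normexp correction both Nr1d1 (0.72) and Bhlhe40 (0.80) were called higher.

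Bmal1, the activator on which the loop depends, read -4.82 to -2.47 (median -4.21) on valsartan arrays, against 0.065 to 0.86 (median 0.52) on low-dose arrays. On no valsartan array was Bmal1 well above background, so those levels are bounds. Bmal1 was at least 7.67-fold lower, taking on each valsartan array the higher of its own signal and the lowest signal well above background. Measured means were -3.97 ± 0.92 on valsartan and 0.48 ± 0.27 on low-dose arrays (SD, n = 6 each, adjusted p = 4.01e-07 in limma). A second Bmal1 probe, also not above background on any valsartan array, gave -2.22 (adjusted p = 0.00012). Npas2, which can stand in for CLOCK, fell by 2.78 ± 0.33 (SE, adjusted p = 8.17e-06), with levels of -2.15 to -0.0048 on valsartan arrays and 0.82 to 1.57 on low-dose arrays. The groups did not overlap, with valsartan array 6 the nearest to the low-dose arrays, and a second Npas2 probe, dimmer, gave -0.28 (adjusted p = 0.478). Nfil3, a repressor at D-boxes, fell by 1.90 ± 0.37 (SE, adjusted p = 0.000559) and was well above background on 1 of 6 valsartan arrays, and its call was lost after normexp correction (-0.44). Clock fell by 0.82 ± 0.19 (SE, adjusted p = 0.00242), above background on 2 of 6 valsartan arrays, but its second probe, above background on none of them, gave 0.0006 (adjusted p = 0.999). After normexp correction the first Clock probe gave 0.032, so its direction turned under that scaling, and with the 75th percentile of probes above background on all arrays it was not called (-0.54).

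**Figure D3:**
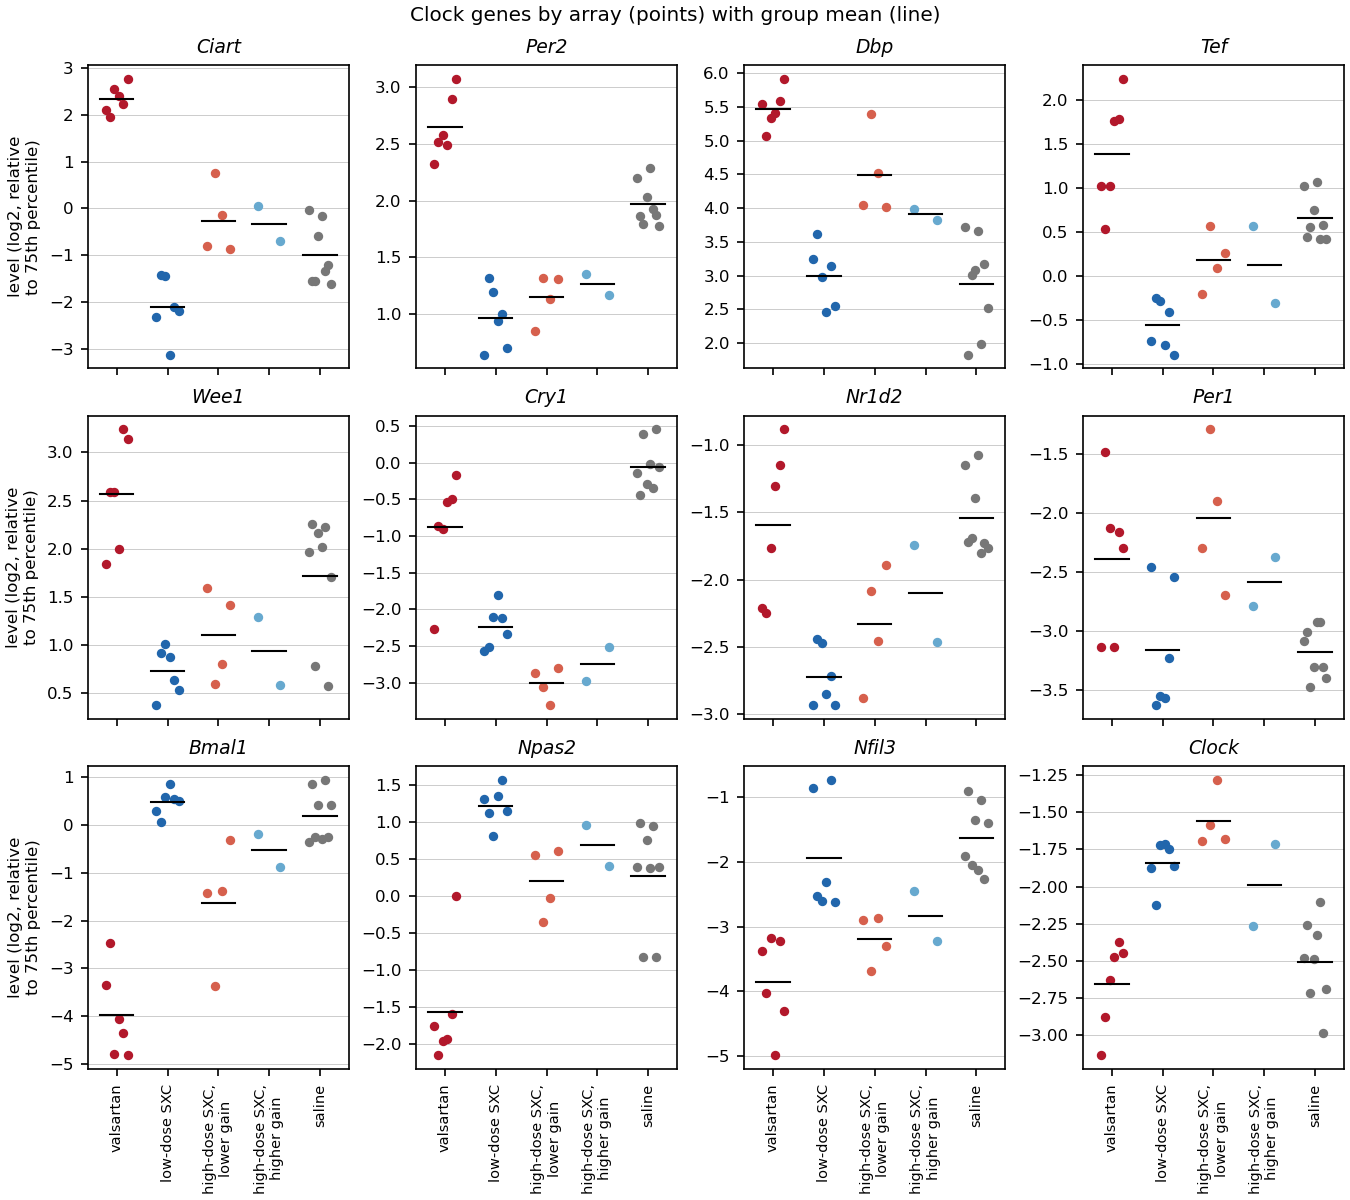
Levels (log2 relative to the array's 75th percentile) of the 12 called clock genes on each array (points) with the group mean (line), for valsartan, low-dose SXC, high-dose SXC at the lower and at the higher gain, and saline. Valsartan arrays stand above every low-dose array in Ciart (1.96 to 2.76 on valsartan arrays and -3.12 to -1.42 on low-dose arrays) and below every one in Bmal1 (-4.82 to -2.47 on valsartan arrays and 0.065 to 0.86 on low-dose arrays).

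The 12 called clock genes kept the sign of their difference with the gain and with the day as a block, though only Ciart and Per2 passed there. With the gain as a block Bmal1 gave -3.35 ± 0.73 (adjusted p = 0.229), Tef 1.90 ± 0.42 (adjusted p = 0.234), Dbp 1.89 ± 0.52 (adjusted p = 0.58) and Npas2 -2.30 ± 0.60 (adjusted p = 0.465). The 6 valsartan arrays can be set against the 2 high-dose arrays of the same day and gain, and the 2 low-dose arrays of another day against the 2 high-dose arrays scanned with them. Valsartan minus high-dose SXC was 3.17 in Ciart, 1.96 in Cry1, 1.57 in Per2, 1.45 in Dbp, 1.36 in Tef and -3.10 in Bmal1. Low-dose minus high-dose SXC was -1.93 in Ciart, 0.30 in Cry1, -0.59 in Per2, -1.02 in Dbp, -0.94 in Tef and 0.92 in Bmal1. On their shared days, high-dose arrays thus read below valsartan and above low-dose in Ciart, Per2, Dbp and Tef, the other way round in Bmal1, and below both in Cry1. These are descriptions of few arrays with no test. The fit with the day as a block takes its difference from the same arrays, so they add nothing separate to it. The 4 low-dose arrays of the other day do not enter that difference. Valsartan was given later in the day than SXC and the hour of killing is not given, and the part of either in these differences was not tested.

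Of 10 renin-angiotensin genes tested and reported here, 1 rose and 1 fell (10% each way, against 12.8% of all genes in each direction). Agtr1a, the main type 1 receptor that valsartan blocks, had levels of -2.18 to -1.28 (median -1.65) on valsartan arrays, against -1.33 to -0.51 (median -0.88) on low-dose arrays. The ranges overlapped slightly, and Agtr1a fell by 0.78 ± 0.22 (SE, adjusted p = 0.0109), but read -0.18 ± 0.38 (adjusted p = 0.988) with the gain and 0.34 with the day as a block. Agtr1b, the second rodent form of that receptor, had levels of 1.25 to 2.15 (median 1.62) on valsartan arrays, against 0.30 to 1.20 (median 0.83) on low-dose arrays. It moved the other way with no overlap and rose by 0.85 ± 0.26 (SE, 1.8-fold, adjusted p = 0.0182), but read 0.18 ± 0.46 (adjusted p = 0.991) with the gain as a block. Within high-dose SXC the lower-gain arrays differed from the higher-gain arrays by -0.60 in Agtr1a and 0.67 in Agtr1b. These match the differences between valsartan and low-dose SXC in sign and are of similar size. The Agtr1a call was lost after normexp correction (-0.29) and quantile normalisation (-0.95), with the 75th percentile of probes above background on all arrays (-0.51), in the authors' deposited values (-0.99) and with the slide as a random block (-0.74). That of Agtr1b was lost with the array median (0.66) and with the slide as a random block (0.82). Agt, the precursor of angiotensin, read -0.97 ± 0.60 (adjusted p = 0.232), and Ace, which forms angiotensin II, 0.16 ± 0.22 (adjusted p = 0.621), with a 95% interval of -0.29 to 0.62 for Ace.

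Of 13 smooth muscle genes Acta2 and Tpm2 fell and the others did not pass. This share (15.4%) was near the 12.8% of all genes that were lower. No smooth muscle gene was called with the slide as a random block, after quantile normalisation, with the 75th percentile of probes above background on all arrays or in the authors' deposited values, while 8 were lower after normexp correction. The list median was -0.43, against -0.07 for all genes, and -0.026 with the gain as a block. The summed linear level of these genes was 410.5 to 587.2 on valsartan arrays and 645.8 to 746.1 on low-dose arrays. In bulk tissue, fewer cells of a type and less RNA per cell cannot be told apart. Acta2, smooth muscle actin, fell by 1.18 ± 0.40 (SE, adjusted p = 0.0304), with levels of 5.28 to 5.92 on valsartan arrays and 6.47 to 7.00 on low-dose arrays that did not overlap, and read -0.37 with the gain as a block. Its call was lost, at -1.16 to -1.11, when low-dose arrays 3, 4 or 5 or valsartan array 4 were left out singly. The call was also lost after quantile normalisation (-0.79), with the 75th percentile of probes above background on all arrays (-0.90), in the authors' deposited values (-0.82) and with the slide as a random block (-1.12). Myh11, smooth muscle myosin, read -0.25 ± 0.16 (adjusted p = 0.26), was called lower after normexp correction (-0.50), and turned to 0.15 after quantile normalisation, 0.15 in the authors' deposited values and 0.028 with the 75th percentile of probes above background on all arrays.

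Of 14 collagen and elastic fibre genes 6 fell (42.9%, against 12.8% of all genes) and the others did not pass (median -0.54, and -0.21 with the gain as a block). Only 1 was lower after quantile normalisation, with the 75th percentile of probes above background on all arrays, in the authors' deposited values and with the slide as a random block. Col5a1, of a collagen that helps to start fibrils, fell by 1.00 ± 0.23 (SE, adjusted p = 0.00224), with levels of -1.01 to -0.62 on valsartan arrays and -0.036 to 0.43 on low-dose arrays that did not overlap. Col1a1, a chain of type I collagen, fell by 0.60 ± 0.20 (SE, adjusted p = 0.0263), and read 0.016 with the gain as a block. The Col1a1 call was lost without valsartan array 3 or without valsartan array 4, at -0.54 in both, and also after quantile normalisation (-0.25), with the 75th percentile of probes above background on all arrays (-0.32), in the authors' deposited values (-0.26) and with the slide as a random block (-0.56). Eln, elastin, read -0.50 ± 0.20 (adjusted p = 0.0596) on its brightest probe and -0.88 (adjusted p = 0.0461) on another, and was called when valsartan array 5 or valsartan array 6 was left out (-0.63 to -0.60), after normexp correction (-0.74) and with the array median (-0.69). Ednra, the endothelin receptor of smooth muscle, fell by 1.67 ± 0.26 (SE, adjusted p = 5.17e-05), above background on 2 of 6 valsartan arrays, while a dimmer probe gave 1.58 (adjusted p = 0.0597). Edn1 (endothelin 1) read 0.29 ± 0.40 (adjusted p = 0.626) and Nos3 (endothelial nitric oxide synthase) read 0.25 ± 0.26 (adjusted p = 0.507), with neither above background on any valsartan array. After normexp correction both were called higher, Edn1 at 0.73 and Nos3 at 0.83.

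Of 16 TGF-beta genes 2 rose and 6 fell (12.5% and 37.5%, against 12.8% of all genes each way). After normexp correction 5 were higher and 6 lower. The lower ones numbered 3 after quantile normalisation and in the authors' deposited values, 1 with the 75th percentile of probes above background on all arrays and 0 with the slide as a random block. Postn, periostin, a matrix protein that TGF-beta induces, fell by 1.08 ± 0.26 (SE, adjusted p = 0.00324), with levels of 1.86 to 3.03 on valsartan arrays and 2.79 to 3.73 on low-dose arrays, which overlapped, and read -0.93 with the slide as a random block, not called. Tgfbr2, the type II receptor, moved the other way and rose by 1.84 ± 0.30 (SE, 3.58-fold, adjusted p = 9.23e-05), with levels of -0.65 to 0.34 on valsartan arrays and -2.32 to -1.32 on low-dose arrays. Within high-dose SXC Tgfbr2 differed by 1.57 between the gains, and with the gain as a block it read 0.27 ± 0.39 (adjusted p = 0.98). Adamts1, a matrix protease, had levels of 5.03 to 6.29 (median 5.74) on valsartan arrays, against 3.75 to 5.28 (median 4.51) on low-dose arrays, with a small overlap. It rose by 1.27 ± 0.27 (SE, 2.41-fold, adjusted p = 0.00149) and read 1.78 ± 0.49 (adjusted p = 0.556) with the gain as a block. Its difference between the gains within high-dose SXC, -0.51, was opposite in sign to its rise.

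Macrophage markers were mostly lower. Of 16 tested, 9 fell and 1 rose (56.2% and 6.25%, against 12.8% of all genes each way). Their median was -0.67, and -0.63 with the gain and -0.465 with the day as a block. After normexp correction 7 fell and 4 rose, and after quantile normalisation 10 fell and 1 rose. With the 75th percentile of probes above background on all arrays 5 fell, and likewise 5 with the slide as a random block, where C1qa was not called (-1.18). The gene that rose without either correction, Fcgr3a, was not above background on any valsartan array. Lyz2, the lysozyme of macrophages, had levels of 3.56 to 4.89 (median 4.23) on valsartan arrays, against 6.04 to 6.51 (median 6.22) on low-dose arrays. The groups were well separated, and Lyz2 fell by 2.03 ± 0.25 (SE, adjusted p = 9.9e-06) and read -1.09 ± 0.40 (adjusted p = 0.739) with the gain as a block. Ctss, a lysosomal protease of antigen-presenting cells, fell by 1.63 ± 0.25 (SE, adjusted p = 5.65e-05), above background on 1 of 6 valsartan arrays, and after normexp correction its call was lost (-0.47). C1qa fell by 1.15 ± 0.30 (SE, adjusted p = 0.00657) and C1qb fell by 1.11 ± 0.24 (SE, adjusted p = 0.00132), both chains of complement C1q, which macrophages make. Aif1, a macrophage marker of vessel walls, fell by 1.08 ± 0.18 (SE, adjusted p = 9.7e-05). None of these genes overlapped between the groups. Within high-dose SXC the difference between the gains was -0.94 in Lyz2, -0.84 in Ctss, -0.14 in C1qa, -0.63 in C1qb and -0.48 in Aif1. The summed linear level of the 16 genes was 17.31 to 35.94 on valsartan arrays, 75.39 to 104.1 on low-dose, 28.83 to 65.41 on high-dose and 62.75 to 112.9 on saline arrays. Lyz2 alone, at its median levels of 4.23 and 6.22, gave most of this sum on valsartan and on low-dose arrays. The sum is therefore not a separate measure of the other genes. Of the 16 genes, 4 were above background on no valsartan array.

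Genes of antigen presentation were mixed, with 3 of 9 MHC class II genes lower and 2 higher, and none higher after quantile normalisation, where 4 were lower. The shares were 33.3% lower and 22.2% higher, against 12.8% of all genes each way, and with the slide as a random block 2 were lower. Cd74, the invariant chain that loads class II molecules, fell by 1.52 ± 0.29 (SE, adjusted p = 0.000522), but was above background on no valsartan array, so no fold is given. After normexp correction neither Cd74 (-0.079) nor RT1-Da (-0.23) was called. RT1-Db1, a class II beta chain, fell by 1.63 ± 0.31 (SE, adjusted p = 0.000546), while a second RT1-Db1 probe gave 0.90 (adjusted p = 0.0149), and RT1-Da, an alpha chain, fell by 1.06 ± 0.28 (SE, adjusted p = 0.00694). RT1-Ba and RT1-DMa, the ones that were higher, were above background on 0 and 1 valsartan arrays. Class II genes have close copies that a probe can share. Of 13 complement genes 4 fell (30.8%) and 1 rose, and 1 was lower with the slide as a random block, where Cfb was lost (-1.28). Cfb, a protease of the alternative pathway, fell by 1.40 ± 0.33 (SE, adjusted p = 0.00322), with levels of -1.02 to 0.41 on valsartan arrays and 0.35 to 1.51 on low-dose arrays, a slight overlap. C4a, of the classical pathway, fell by 1.01 ± 0.22 (SE, adjusted p = 0.00156), with levels of 0.59 to 1.47 on valsartan arrays and 1.61 to 2.73 on low-dose arrays that did not overlap.

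Among lymphocyte and neutrophil markers, Elane and Cd3g were far higher on valsartan arrays, while Cd3d, Cd4, S100a8 and S100a9 did not pass. Elane, neutrophil elastase, had levels of 2.08 to 3.63 (median 3.23) on valsartan arrays, against -2.97 to 0.21 (median -2.24) on low-dose arrays. It rose by 4.60 ± 0.59 (SE, 24.3-fold, adjusted p = 1.21e-05), differed by 3.18 between the gains within high-dose SXC, and read -0.45 with the day as a block. Of the low-dose arrays, the 2 of one scan day read 0.12 to 0.21 in Elane and the 4 of the other day -2.97 to -2.19, so low-dose arrays split by scan day. Cd3g, a chain of the T cell receptor complex, rose by 3.83 ± 0.54 (SE, 14.2-fold, adjusted p = 2.19e-05), differed by 2.77 between the gains within high-dose SXC, and split in the same way, at -0.84 to -0.66 and -3.16 to -2.66. Of 6 T and B cell genes tested 4 rose (66.7%, against 12.8% of all genes), and only Cd3g of these was above background on all 6 valsartan arrays. Cd3d, above background on all 6 arrays of both groups, read 0.30 (adjusted p = 0.371). Cyp1b1, a cytochrome P450 that oxidises steroids and foreign compounds, rose by 4.80 ± 0.68 (SE, 27.9-fold, adjusted p = 2.29e-05), with low-dose levels of -0.36 to -0.10 and -4.67 to -4.17 on the 2 days, and read -0.066 with the day as a block. Of 10 neutrophil and red cell genes 2 rose and 2 fell (20% each way, against 12.8% of all genes each way). The rises were those of Elane and Cxcr2 and the falls those of Hbb and Hbb-b1. Cxcr2 (1.53) was above background on 1 valsartan array, and S100a8 (0.85, adjusted p = 0.414) and S100a9 (0.80, adjusted p = 0.221) did not pass. The other red cell genes did not pass, Hba-a1 at -0.89, Hbb-bs at -1.24, Slc4a1 at -0.059 and Alas2 at 1.15. Hbb fell by 1.57 ± 0.37 (SE, adjusted p = 0.00286) and read -2.11 ± 0.66 (adjusted p = 0.648) with the gain as a block, with levels of 1.73 to 3.67 on valsartan arrays and 3.06 to 4.98 on low-dose arrays. A second Hbb probe, above background on no valsartan array and on 1 low-dose array, gave 2.00 (adjusted p = 0.0259), the other way. Hbb-b1 fell by 1.33 ± 0.46 (SE, adjusted p = 0.0314), a call lost at -1.23 to -1.13 when low-dose arrays 1 or 5 or valsartan arrays 2, 3 or 4 were left out singly, and also after quantile normalisation (-1.23), with the 75th percentile of probes above background on all arrays (-1.06), in the authors' deposited values (-1.29) and with the slide as a random block (-1.33). Both encode beta globins, whose near-identical sequences a probe can share, and both overlapped between the groups. Of 14 endothelial genes 4 rose and 2 fell (28.6% and 14.3%, against 12.8% of all genes each way). None of the 4 was above background on all 6 valsartan arrays. With the slide as a random block 1 was higher and 1 lower. Cdh5, the endothelial cadherin, rose by 1.02 ± 0.25 (SE, 2.03-fold, adjusted p = 0.00392) and read -0.087 with the gain and 0.85 with the slide as a random block, called in neither, while Pecam1, an adhesion protein of endothelium, read -0.44 ± 0.31 (adjusted p = 0.301).

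The chaperone genes that changed were lower. Of 13 heat shock genes 7 fell (53.8%, against 12.8% of all genes) and the others did not pass, with a median of -0.50, and -0.24 with the gain as a block. After quantile normalisation 3 fell, and with the slide as a random block 1, since Dnaja1 (-1.18), Hsp90ab1 (-0.99) and Hspa8 (-0.70) were among those lost. Of the genes that did not pass, Hspb1 read 0.090 and Hspb8 0.66. Hsph1, a nucleotide exchange factor for HSP70, had levels of -1.58 to 1.00 (median -0.54) on valsartan arrays, against 1.00 to 2.11 (median 1.73) on low-dose arrays. The ranges just met, and Hsph1 fell by 2.04 ± 0.38 (SE, adjusted p = 0.000369) and read -1.20 ± 0.66 (adjusted p = 0.888) with the gain as a block. Dnaja1, a co-chaperone of HSP70, fell by 1.30 ± 0.40 (SE, adjusted p = 0.0164). Hsp90ab1, a constitutive HSP90, fell by 0.99 ± 0.25 (SE, adjusted p = 0.00541), and Hspa8, the constitutive HSP70, fell by 0.75 ± 0.19 (SE, adjusted p = 0.00522), with all 4 of its probes called lower. The Hspa8 call was lost after quantile normalisation (-0.36) and in the authors' deposited values (-0.39). Of 26 ribosomal protein genes 11 fell (42.3%) and the others did not pass, and with the slide as a random block 3 fell, but after quantile normalisation 3 rose and 3 fell. Their median of -0.32 was 0.049 after quantile normalisation and 0.055 with the gain as a block. Rps2, of the small ribosomal subunit, fell by 0.74 ± 0.14 (SE, adjusted p = 0.000323), with levels of 4.56 to 5.14 on valsartan arrays and 5.36 to 5.76 on low-dose arrays. Rps27a, which encodes ubiquitin fused to a ribosomal protein, fell by 1.20 ± 0.31 (SE, adjusted p = 0.0055), and was not called with the slide as a random block (-1.05). Its valsartan arrays 1 and 2 read 6.51 and 6.58, within the low-dose range of 6.51 to 6.85, and the other 4 read 4.56 to 5.23. Arrays 1 and 2 shared a scan time, taken as a slide, and the other 4 shared another, so this split follows the scan time. Ribosomal protein genes have many near-identical copies in the genome that a probe can share.

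Of 17 white fat genes only Acaca was called, higher, and the median was -0.58, and -1.40 with the gain as a block. Adipoq, adiponectin, had levels of 0.86 to 3.65 on valsartan arrays and 2.19 to 4.67 on low-dose arrays and a difference of -0.80 ± 0.64 (adjusted p = 0.369). Ucp1, the uncoupling protein of brown fat, had levels of -0.28 to 2.76 on valsartan arrays and 0.16 to 4.09 on low-dose arrays and a difference of -0.67 ± 0.91 (adjusted p = 0.621). Both genes overlapped between the groups. Of 9 brown fat genes Dio2, which activates thyroid hormone, was called (-2.16, adjusted p = 0.00414), above background on no valsartan array, and the median was -0.67, and -1.52 with the gain as a block. Of 18 glucocorticoid target genes 3 rose (Fkbp5, Tsc22d3 and Per1) and 1 fell (Angptl4), shares of 16.7% and 5.56% against 12.8% of all genes each way. With the slide as a random block none was called, with Fkbp5 at 1.52, Tsc22d3 at 0.74, Per1 at 0.62 and Angptl4 at -1.74. Fkbp5, a co-chaperone of the glucocorticoid receptor, had levels of 1.55 to 3.32 (median 2.93) on valsartan arrays, against -0.12 to 3.07 (median 1.17) on low-dose arrays. Low-dose arrays 3 and 6, at 3.07 and 2.13, lay within the valsartan range. Fkbp5 rose by 1.47 ± 0.42 (SE, 2.76-fold, adjusted p = 0.0105) and read 2.40 ± 0.73 (adjusted p = 0.648) with the gain as a block. Tsc22d3, which encodes the anti-inflammatory protein GILZ, rose by 0.70 ± 0.26 (SE, 1.63-fold, adjusted p = 0.0484) and read 1.32 ± 0.46 (adjusted p = 0.692) with the gain as a block. The Tsc22d3 call was lost, at 0.62 to 0.74, when any single array other than low-dose array 3 and valsartan array 1 was left out, and also after normexp correction (0.50) and with the array median (0.51). In both genes the difference between the gains within high-dose SXC was opposite in sign to the rise, -0.93 in Fkbp5 and -0.61 in Tsc22d3. Angptl4, a lipase inhibitor that fat makes, fell by 1.76 ± 0.62 (SE, adjusted p = 0.0352), a call lost at -1.76 to -1.49 when low-dose arrays 2, 3 or 4 or valsartan arrays 1 or 5 were left out singly, and also after quantile normalisation (-1.63), with the 75th percentile of probes above background on all arrays (-1.49) and in the authors' deposited values (-1.70).

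**Figure D4:**
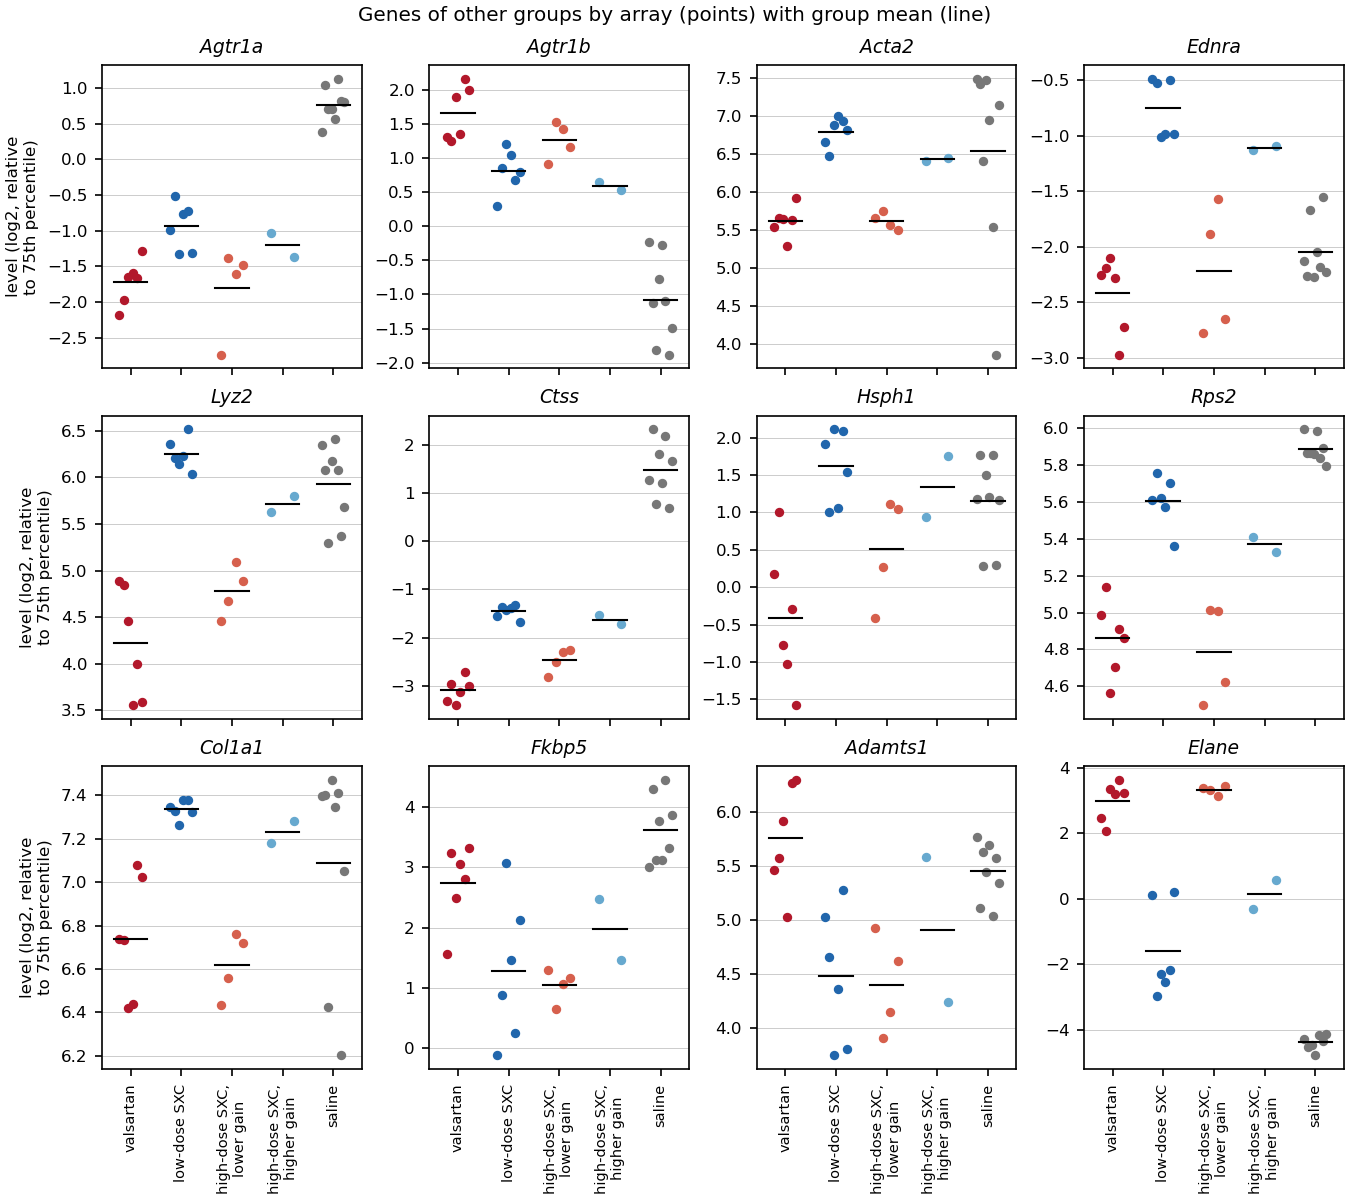
Levels (log2 relative to the array's 75th percentile) of 12 genes outside the clock on each array (points) with the group mean (line), for valsartan, low-dose SXC, high-dose SXC at the lower and at the higher gain, and saline. In Agtr1b and Elane the high-dose arrays differ between the gains in the direction in which valsartan differs from low-dose SXC (by 0.67 and 3.18), and in Fkbp5 and Adamts1 in the opposite direction (by -0.93 and -0.51).

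Antioxidant genes that changed were lower and most cell cycle genes that changed were higher. Of 28 antioxidant and NADPH oxidase genes 7 fell (25%, against 12.8% of all genes), among them Sod3 (-0.61), the extracellular superoxide dismutase, and Ncf1 (-1.21), a subunit of the phagocyte oxidase. Of 17 cell cycle genes 5 rose and 1 fell (29.4% and 5.88%), with Cdc20 (1.86), an activator of the anaphase-promoting complex, Ccnd1 (1.30), cyclin D1, and, lower, the inhibitor Cdkn1a (-0.87) above background on all valsartan arrays. Of 23 proteasome genes 3 fell (13%), about the share of all genes. Of 20 genes that control contraction 4 fell (20%), among them Cacna1c (-0.76), the L-type calcium channel of smooth muscle. Of 13 nitric oxide and cGMP genes 1 fell and 1 rose (7.69% each way, against 12.8% of all genes). These were Prkg1 (-0.77), the cGMP-dependent kinase, and Npr2 (1.53), the receptor of C-type natriuretic peptide. Of 10 adrenergic genes 2 rose (20%), Adra1a (1.25), the alpha-1A receptor, and Grk2 (4.20), a kinase that desensitises receptors. Of 10 nerve and Schwann cell genes 2 rose (20%), S100b (3.32) and Sox10 (1.78). Within high-dose SXC the difference between the gains was 1.59 in Npr2, 1.79 in Adra1a and 2.59 in Grk2. It was 2.75 in S100b, 2.00 in Sox10 and -0.68 in Prkg1. With the gain as a block the signs of Npr2 (-0.069), Adra1a (-0.55) and Sox10 (-0.22) turned. With the slide as a random block 2 antioxidant, 1 proteasome and 0 contraction genes were lower and 2 cell cycle genes higher. With the 75th percentile of probes above background on all arrays 1 antioxidant, 1 proteasome and 0 contraction genes were lower. None of these genes passed with the gain as a block.

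**Figure D5:**
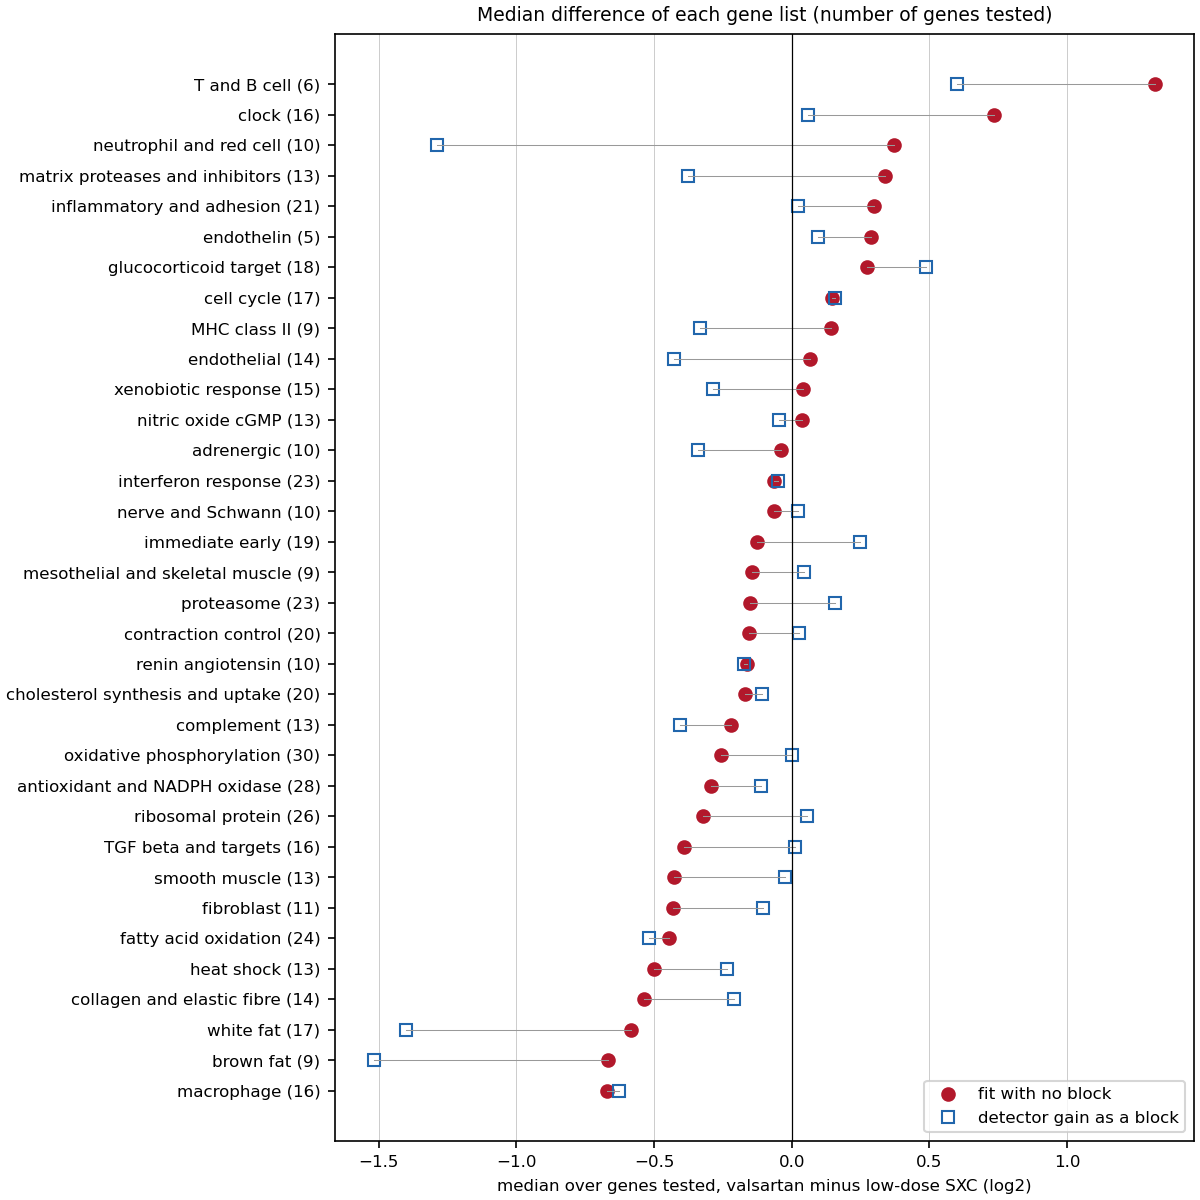
Median difference, valsartan minus low-dose SXC, over the genes tested of each of 34 lists (log2, number of genes in brackets), in the fit with no block (filled circles) and with the detector gain as a block (open squares). The macrophage median stays near its value (-0.67 and -0.63) while the ribosomal protein median goes to near 0 (-0.32 and 0.055).

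The 10 largest rises among genes above background on all valsartan arrays were those of Or8b8 (6.04), Hsf2bp (6.01), Hivep1 (5.86), Dbndd1 (5.55), Svs3a (5.54), Or2a20 (5.45), Grm8 (5.37), Ccdc134 (5.18), Or5b95 (4.85) and Ly49i2 (4.81). They include the olfactory receptor genes Or8b8, Or2a20 and Or5b95, the glutamate receptor gene Grm8, the zinc finger gene Hivep1 and the natural killer receptor gene Ly49i2. In all 10 the lower-gain high-dose arrays read 1.87 to 5.80 above the higher-gain ones. Against the 2 high-dose arrays of their own scan day, valsartan arrays differed by -1.30 to 0.07 in these genes. None passed with the gain as a block, where their differences were 0.16 to 3.67 and the lowest adjusted p 0.831. Low-dose arrays of one scan day read 0.52 to 5.72 above those of the other. Hsf2bp, which encodes a partner of the heat shock factor HSF2, read 0.49 to 2.10 on valsartan arrays and -5.50 to -4.43 on low-dose arrays, but a second Hsf2bp probe gave 0.36 (adjusted p = 0.417).

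Ranked by the measured signals, the 10 largest falls included those of Krcc1 (-2.86), Arvcf (-2.79), Npas2 (-2.78), Rwdd2a (-2.62) and Doc2b (-2.52), of which Npas2 belongs to the clock. The other 5 were Bmal1, Or8b59, Arsi, Or1e27b and Cesl1, above background on no valsartan array, so they have a lower bound only and their place in the order is not known. Bmal1 was at least 7.67-fold lower, as above. Arsi, a sulfatase gene, was at least 2.34-fold lower. Cesl1, a carboxylesterase-like gene, was at least 2.26-fold lower, and the olfactory receptor genes Or8b59 and Or1e27b were at least 2.14-fold and at least 1.96-fold lower. The Cesl1 call was lost without low-dose array 2 or without valsartan array 3, at -2.42 and -2.46, after normexp correction (-0.82) and with the slide as a random block (-2.52), where Krcc1 was lost too (-2.47). Krcc1 read 2.55, 2.52, 0.88, 0.39, -3.36 and -3.32 on valsartan arrays, against 2.58 to 3.06 on low-dose arrays, so valsartan arrays 1 and 2 lay just under the low-dose range. Those 2 arrays shared a scan time, taken as a slide, and the other valsartan arrays shared another. Slide and rat cannot be told apart in this split. With the gain as a block Arvcf, a catenin of cell junctions, turned to 0.64 and Doc2b, a calcium sensor of vesicle release, to 0.21, and the lowest adjusted p of the 10 was 0.229, in Bmal1.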

How the data were processed

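Total RNA of each rat aorta was labelled with Cy3 and hybridised to a 1-colour Agilent rat array, and each deposited scanner file holds one array's probe intensity, background-corrected by the authors with Agilent Feature Extraction 11.0.1.1, per the submitters' processing notes. The authors also deposited a table of log2 values, with no stated normalisation, which served as an alternative. From the intensities, 1377 control spots and outlier-flagged spots were left out, spots of a probe were averaged, and log2 minus the array's 75th percentile was taken for 30367 probes. Those above background by the scanner's flag on 6 or more of 26 arrays (23744) were fitted over all 4 groups with limma 3.58.1 in R 4.3.3 (lmFit, eBayes with trend, 2-sided, Benjamini-Hochberg over all probes, adjusted p under 0.05). All intervals and adjusted p-values come from this fit, or, where said, from the same fit with detector gain or scan day as a block. The spread is that between arrays of a group, which holds differences between rats and between slides, since each group lay on 2 or 3 slides. Slides here are those inferred from the scan time. Precision is limited by how many arrays each group has. Of the probes, 18005 have 1 gene symbol, 0 have several and 12362 have none. A gene is read by its brightest probe. Some genes of the lists are not reported here. Numbered arrays of the 2 groups are not pairs (correlations of their deviations -0.19 to 0.09).

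The comparison, the gene lists and the genes named were chosen with earlier results of these data known. Named genes are the 10 largest called changes each way among probes above background on all arrays of the brighter group, those also called with the gain block, a list of vessel genes, and up to 5 called genes a list in each direction. Alternatives covered scaling, background, filters, samples in the fit, blocks, array weights and leaving out each array. Scripts were tested on simulated data. Sequences are from RefSeq.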

Additional observations from a re-analysis of the deposited data

Results flagged for a closer look

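Of 156 groups of 6 arrays tested for a single array far from the others, 4 were picked out, where chance alone picks about 1 in 20. In Npas2 valsartan array 6 read -0.0048, against -2.15 to -1.59 on the other valsartan arrays. In Cry1 valsartan array 1 read -2.26, against -0.90 to -0.17 on the other valsartan arrays. In Doc2b low-dose array 2 read 0.15, against -1.11 to -0.69 on the other low-dose arrays. In Tsc22d3 low-dose array 3 read 2.67, against 1.68 to 2.04 on the other low-dose arrays.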

How the results depend on the processing

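The 6523 calls became 13922 after normexp correction, 13710 with no filter on dim probes, 3221 with probes above background on at least 11 of 12 arrays, 2137 with the slide as a random block, 4 with the detector gain as a block (3 over the 18 treated arrays) and 20 with the scan day as a block. They were 2656 over probes above background on all 12 arrays, and 6 there with the gain as a block, 2 alternatives chosen after seeing the data. Leaving out 1 valsartan or low-dose array at a time gave 5173 to 6868 calls, and leaving out 1 high-dose array from the gain block 3 to 23, the 23 without high-dose array 1 and also without array 2, the ones at the higher gain. Clock genes called, 12, became 6 at 11 of 12 arrays, 5 over probes above background on all 12 arrays, 2 there with the gain as a block, 2 with the gain (26 or 18 arrays) or the day as a block, and 2 to 3 with the gain block when a high-dose array was left out, while leaving out other arrays gave 11 to 12. With the replicate block 5735 probes were called, 5099 of them among the 6523. The fixed slide block could not be fitted, since the 2 slides of the valsartan arrays hold only valsartan. The cause of these shifts was not tested, apart from the fewer probes under the stricter filters.

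Signs were followed across the alternatives for a part of the genes named above that leaves out Npr2, Adra1a and Sox10. Among those followed, signs that turned were, after normexp, Per3 -0.030, Clock 0.032. They were Nr1d1 -0.35, Myh11 0.15 after quantile normalisation, Per3 -0.036, Ace -0.031 with the array median, Myh11 0.028 with the 75th percentile of probes above background on all arrays, Nr1d1 -0.31, Myh11 0.15 in the authors' deposited values. Per3 read -0.017 to 0.31 when single arrays were left out, lowest without low-dose array 2. With the gain as a block, over 26 or 18 arrays, they were Arvcf 0.64, Doc2b 0.21, Per3 -0.16, Nr1d1 -0.37, Bhlhe40 -0.74, Ace -0.39, Nos3 -0.89, Myh11 0.041, Col1a1 0.016, Cdh5 -0.087. With the day as a block they were Or8b8 -0.29, Hivep1 -0.31, Dbndd1 -0.25, Or2a20 -1.14, Grm8 -0.18, Or5b95 -0.48, Ly49i2 -0.83, Krcc1 0.56, Arvcf 0.57, Rwdd2a 0.60, Doc2b 0.44, Per3 -0.28, Cry2 0.19, Nr1d1 -0.59, Bhlhe40 -1.53, Agtr1a 0.34, Ace -0.31, Nos3 -0.96, Myh11 0.038, Col1a1 0.060, Rps27a 0.099, Rps2 0.18, Tgfbr2 -0.12, Cfb 0.081, Cyp1b1 -0.066, Elane -0.45, Cdh5 -0.096. Calls of these genes lost with the sign kept numbered 58 with the gain, 42 with the day and 20 with the slide block. Called genes whose sign turned with the gain or the day lost their calls too and are not in these counts. What valsartan arrays can show is limited by signal over background.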

Other observations

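Kcna6, a voltage-gated potassium channel gene named here after its values were seen, read 0.67 (adjusted p = 0.0552) in the fit with no block and 2.22 with the gain as a block (adjusted p = 0.00074), with a difference of -1.56 between the gains within high-dose SXC. Pla2g7, which encodes an enzyme that degrades platelet-activating factor and was also named after its values were seen, was called lower in the fit with no block (-1.18, adjusted p = 0.0378) and with the day as a block (-3.77, adjusted p = 0.0407), but was above background on 0 valsartan arrays.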
